A study of Mus musculus with 21 samples.

Results

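The 10 genes described here mark mast cells and were chosen by symbol from a table of 64050 gene symbols. They are the chymases Mcpt4 and Cma1, the tryptases Tpsb2 and Tpsab1, the carboxypeptidase Cpa3, the receptor genes Kit, Fcer1a, Ms4a2 and Mrgprb2, and Hdc, which encodes the enzyme that makes histamine. All 10 were found, had counts in both counting runs and passed the filter on low counts that left 20462 genes.

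RNA was sequenced from 21 pieces of mouse skin, each 3 mm in diameter, from mice with transplanted marrow, a model of the hardening skin seen in chronic graft-versus-host disease. All recipients were BALB/c mice that were 8 weeks old, were irradiated with 700 cGy and received bone marrow. Treatment started on day 21 and skin was examined at week 7. The mCAN10 group (4 libraries) had B10.D2 marrow and an antibody against IL1RAP, the shared co-receptor of the IL-1, IL-33 and IL-36 receptors. The Allo group (4 libraries) had B10.D2 marrow and an isotype control antibody. The Syn group (4 libraries) had BALB/c marrow and the same isotype antibody. Antibodies were injected 2 times a week, first at 20 mg/kg and then at 10 mg/kg. The Nin group (5 libraries) had B10.D2 marrow and nintedanib, a kinase inhibitor that acts on PDGF, FGF and VEGF receptors, at 50 mg/kg, and the Allo_H group (4 libraries) had B10.D2 marrow and water. The submitters' texts differ on whether nintedanib was given by mouth or by injection. Irradiation and marrow transfer are shared by every group, so no untreated skin is among the libraries. Allo and Syn differ in donor strain as well as in disease, and those cannot be told apart. Y-linked transcripts were in all 4 Syn libraries and in no Allo library, so the presence of male cells cannot be told apart from them either.

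Mast cells sit in the dermis and store proteases, histamine and heparin in granules that they release when stimulated. In mice the connective tissue type found in skin is marked by chymases, tryptases and carboxypeptidase A3. The cells depend on KIT and its ligand stem cell factor, fire through the high-affinity IgE receptor FcεRI, and can be triggered without IgE through MRGPRB2, a receptor for basic peptides and drugs. They also carry the IL-33 receptor, which signals through IL1RAP.

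Total counts per library ranged from 17130264 to 32899212. The mCAN10, Allo and Syn libraries were counted with other gene names than the Nin and Allo_H libraries, so each comparison stays within a counting run. Some pieces of skin differed in make-up. Markers of skeletal muscle summed to 12.5 counts per 1000000 (CPM) in Allo replicate 1 and to at least 3540 CPM in every other library. Hair shaft genes summed to 11240 and 1838 CPM in Nin replicates 1 and 3 and to at most 56.3 CPM elsewhere. The 4 Y-linked genes Ddx3y, Uty, Kdm5d and Eif2s3y had counts in 1 mCAN10 library, no Allo library and all 4 Syn libraries, and in 2 Nin libraries and no Allo_H library. Keratinocyte markers summed to 15942 to 24779 CPM in mCAN10, 41640 to 64416 CPM in Allo and 13111 to 24162 CPM in Syn libraries, and to 6118 to 38319 CPM in Nin and 33307 to 75416 CPM in Allo_H libraries. Of the 5 keratinocyte markers, 3 were called higher in Allo over Syn, 2 lower in mCAN10 over Allo and 2 lower in Nin over Allo_H by edgeR. The shares of all genes called in those directions were 13.8%, 5.19% and 3.76%. Schwann cell markers moved the other way in the first run, at 741 to 1109 CPM in mCAN10, 264 to 360 CPM in Allo and 576 to 1400 CPM in Syn libraries, with 3 of 4 called lower in Allo over Syn and 3 of 4 higher in mCAN10 over Allo. Fibroblast markers summed to 2646 to 7464 CPM in mCAN10, 631 to 3180 CPM in Allo and 3348 to 4878 CPM in Syn libraries, with 2 of 6 called in the same directions. Of all genes, 8.8% were called lower in Allo over Syn and 5.58% higher in mCAN10 over Allo. The part of these differences in make-up in the mast cell results was not tested.

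Against a background of 22.6% of genes called at an adjusted p under 0.05 (13.8% higher and 8.8% lower), 3 of the 10 mast cell genes were called in Allo against Syn skin. Fcer1a and Hdc were higher and Mrgprb2 was lower. In mCAN10 against Allo skin, 10.8% of all genes were called (5.58% higher and 5.19% lower), and of the 10 genes only Mrgprb2 was called, higher. In mCAN10 against Syn skin 0.811% of all genes and none of the 10 were called by edgeR. DESeq2 called 1 of the 10, and 678 of 23672 genes in all. By edgeR 3 of the 10 had an unadjusted p under 0.05. The share of all genes at that unadjusted threshold is not given here, so this count has no background. In Nin against Allo_H skin, 9.31% of all genes were called (5.56% higher and 3.76% lower), and of the 10 genes Mrgprb2 was called higher and Hdc lower. The median log2 fold change of the 10 genes was -0.39 in Allo over Syn, 1.00 in mCAN10 over Allo, 0.49 in mCAN10 over Syn and -0.17 in Nin over Allo_H. The median over all genes tested lay between 0 and 0.03 in these comparisons. In bulk tissue, fewer mast cells and less RNA per mast cell cannot be told apart.

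**Figure D1:**
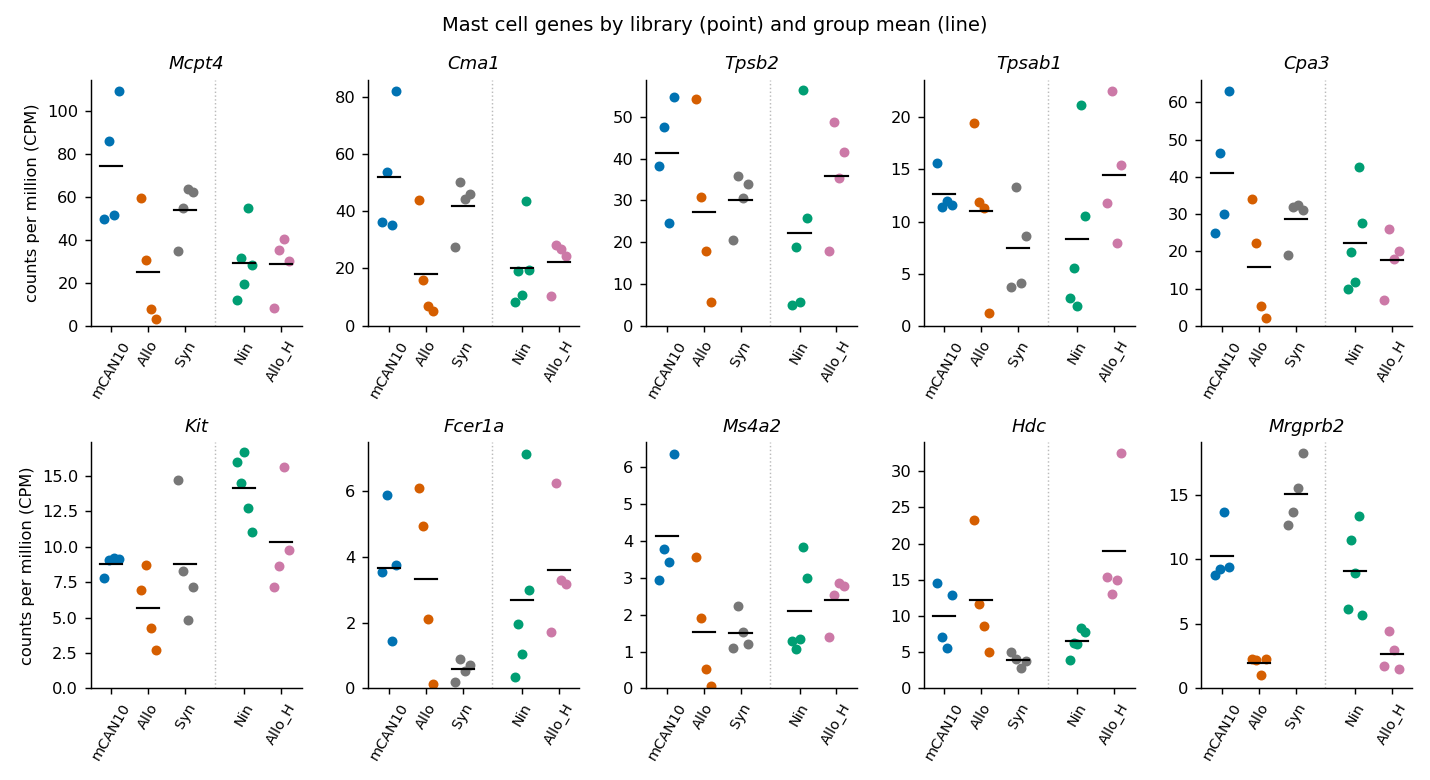
CPM of the 10 mast cell genes (vertical axes, each from 0) in the 5 groups, with 1 point per library, a line at the group mean and a dotted line between the counting runs. Mrgprb2 sits between 1.06 and 2.29 CPM in the 4 Allo libraries, below all mCAN10 and Syn libraries, while the proteases spread widely within Allo.

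Levels between genes were compared per kilobase of merged exons, which join all transcripts of a gene. Merged exons came to 6389 bases for Hdc and 8911 for Kit, while the transcripts aligned below had 2392 and 5241 bases. The place of such genes in the order therefore depends on the length used. In Allo skin the order was Mcpt4 (22.8 ± 23.5 CPM per kb), Tpsb2 (17.1 ± 13.1), Cma1 (16.5 ± 16.5) and Cpa3 (10.5 ± 9.85), all within each other's spread, and Mrgprb2 (0.944 ± 0.288) had a lower mean than Tpsab1 (5.24 ± 3.57), Fcer1a (3.33 ± 2.71) and Hdc (1.90 ± 1.24). In Syn skin the chymases led with 48.7 ± 12.1 CPM per kb for Mcpt4 and 38.5 ± 9.18 for Cma1, ranges that overlap (SD, n = 4). Tpsb2 (18.9 ± 4.24 CPM per kb) and Cpa3 (18.9 ± 4.22) followed, then Mrgprb2 at 7.23 ± 1.17 and Tpsab1 at 3.55 ± 2.15 CPM per kb. Kit, Hdc, Fcer1a and Ms4a2 lay lowest, between 0.538 and 0.983 CPM per kb, and on merged exon length did not differ beyond their spread.

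The chymases are granule serine proteases with chymotrypsin-like specificity, and Mcpt4 is regarded as the mouse enzyme closest in function to human chymase. Mcpt4 had 49.9, 86.3, 51.6 and 109 CPM in mCAN10 libraries, 59.7, 30.8, 7.59 and 2.94 CPM in Allo libraries and 34.8, 54.8, 64.0 and 62.2 CPM in Syn libraries. The Allo libraries spread widely: replicate 1 lies among the Syn libraries, and replicates 2, 3 and 4 lie below every mCAN10 and Syn library. The log2 fold change of Mcpt4 was -1.09 ± 0.66 in Allo over Syn (edgeR adjusted p = 0.252) and 1.55 ± 0.66 in mCAN10 over Allo (adjusted p = 0.150). Without Allo replicate 1 it was -1.97 (adjusted p = 0.0464) and 2.43 (adjusted p = 0.0282), both past the threshold. Replicate 1 had the highest Mcpt4 of the Allo libraries, so leaving it out widens both differences.

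Cma1 followed the same order, at 36.1, 53.8, 35.3 and 82.1 CPM in mCAN10, 44.1, 15.9, 7.01 and 5.06 CPM in Allo and 27.4, 50.3, 44.2 and 45.9 CPM in Syn libraries. Again Allo replicate 1 overlapped both other groups and the other 3 Allo libraries lay below them. The log2 fold change of Cma1 was -1.22 ± 0.58 in Allo over Syn (edgeR adjusted p = 0.141) and 1.52 ± 0.58 in mCAN10 over Allo (adjusted p = 0.106). Without Allo replicate 1 it was -2.17 (adjusted p = 0.0101) and 2.47 (adjusted p = 0.00872). Skeletal muscle content as a covariate gave -2.25 (adjusted p = 0.0209) and 2.25 (adjusted p = 0.0152). Allo replicate 1 was the highest Allo library in Cma1 and the one nearly without muscle markers, so these alternatives are not independent. Cma1 passed in no other alternative of these comparisons. Without Allo replicate 3 it was -0.95 (adjusted p = 0.273) and 1.25 (adjusted p = 0.242). Without Allo replicate 4 it was -0.91 (adjusted p = 0.315) and 1.21 (adjusted p = 0.257).

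In the second run the chymases gave no such split. Mcpt4 had 12.2, 31.8, 19.4, 55.1 and 28.5 CPM in Nin libraries, against 8.36, 35.3, 40.5 and 30.3 CPM in Allo_H libraries. Cma1 had 8.19, 19.1, 10.6, 43.5 and 19.5 CPM in Nin libraries, against 10.3, 28.2, 26.7 and 24.2 CPM in Allo_H libraries. The ranges overlap, with log2 fold changes of 0.04 ± 0.62 for Mcpt4 and -0.15 ± 0.54 for Cma1 (edgeR adjusted p = 1 for both). Nin replicates 1 and 3, those with hair shaft transcripts, held the lowest values of both genes in the group, and the part of hair growth in this was not tested.

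Cpa3 encodes a zinc exopeptidase stored with the chymases. It had 24.8, 46.3, 30.1 and 63.1 CPM in mCAN10, 34.0, 22.1, 5.37 and 2.06 CPM in Allo and 19.0, 31.9, 32.4 and 31.2 CPM in Syn libraries. As with the chymases, Allo replicates 3 and 4 were the lowest libraries of the run. Unlike with the chymases, Allo replicate 2 lay above the lowest Syn library. Its log2 fold changes were -0.85 ± 0.62 in Allo over Syn (edgeR adjusted p = 0.364), 1.37 ± 0.63 in mCAN10 over Allo (adjusted p = 0.187) and 0.33 ± 0.59 in Nin over Allo_H (adjusted p = 0.852). Nin libraries had 9.74, 19.9, 11.7, 42.6 and 27.7 CPM and Allo_H libraries 7.02, 26.0, 17.8 and 20.2 CPM, which overlap.

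Mcpt4, Cma1 and Cpa3 varied together from library to library, and the start regions of these 3 genes are shown for that reason. That of Mrgprb2 is shown beside them. On log2 CPM Mrgprb2 followed the 3 genes less closely, at r = 0.629 to 0.736 in the first run and 0.132 to 0.410 in the second. Each window runs from 250 bases before to 50 bases after the start in RefSeq on GRCm38.p6, an older build than the GRCm39 named for the counts, and is written 5′ to 3′ on the gene's own strand. Capitals mark GATAA on either strand, which reads TTATC where it lies on the other strand. GATAA is a core sequence of GATA factors, of which GATA2 is needed for mast cells.
Cpa3 promoter, chr3:20242132-20242431, strand minus: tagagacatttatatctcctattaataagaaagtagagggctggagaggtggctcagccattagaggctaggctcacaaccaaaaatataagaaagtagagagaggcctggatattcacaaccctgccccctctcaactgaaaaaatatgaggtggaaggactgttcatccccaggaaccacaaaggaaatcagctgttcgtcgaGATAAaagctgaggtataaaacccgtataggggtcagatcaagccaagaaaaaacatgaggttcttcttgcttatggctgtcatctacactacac
Mcpt4 promoter, chr14:56062261-56062560, strand minus: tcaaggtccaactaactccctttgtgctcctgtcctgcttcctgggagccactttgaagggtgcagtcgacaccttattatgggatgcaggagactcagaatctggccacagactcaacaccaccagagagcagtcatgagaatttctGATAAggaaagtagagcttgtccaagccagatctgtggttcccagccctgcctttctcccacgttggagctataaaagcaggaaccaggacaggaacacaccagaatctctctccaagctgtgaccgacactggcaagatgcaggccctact
Cma1 promoter, chr14:55944626-55944925, strand minus: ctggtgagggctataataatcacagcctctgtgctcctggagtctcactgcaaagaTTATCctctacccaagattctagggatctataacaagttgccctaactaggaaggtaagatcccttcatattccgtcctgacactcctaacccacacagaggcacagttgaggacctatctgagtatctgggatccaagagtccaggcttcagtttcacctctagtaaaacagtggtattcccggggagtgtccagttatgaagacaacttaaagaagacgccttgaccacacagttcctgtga
Mrgprb2 promoter, chr7:48558037-48558336, strand minus: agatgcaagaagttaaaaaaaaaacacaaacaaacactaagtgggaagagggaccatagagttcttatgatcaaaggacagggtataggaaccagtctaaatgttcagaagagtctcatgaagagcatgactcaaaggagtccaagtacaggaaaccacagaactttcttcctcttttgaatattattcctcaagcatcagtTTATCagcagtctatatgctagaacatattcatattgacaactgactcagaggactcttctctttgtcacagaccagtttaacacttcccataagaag

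GATAA began 45 bases before the start in Cpa3, 102 in Mcpt4, 194 in Cma1 and 48 in Mrgprb2. Of the 8 genes with a window in the RefSeq table, 6 held GATAA and 2, Kit and Hdc, did not. Among all 32851 windows of the table, 25.4% held it. CATGTG, an E-box bound by MITF, was in the window of Fcer1a and in none of the other 7, against 14.2% of all windows. Tpsb2 and Tpsab1 had no window in that table. These matches describe letters in a short window and say nothing of binding.

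The tryptases are trypsin-like granule proteases that are active as tetramers. Tpsb2 had 38.3, 47.5, 24.7 and 54.7 CPM in mCAN10, 54.4, 30.9, 17.8 and 5.75 CPM in Allo and 20.6, 35.8, 30.5 and 33.9 CPM in Syn libraries. All 3 groups overlap, with a log2 fold change of -0.15 ± 0.63 in Allo over Syn (edgeR adjusted p = 0.926) and of 0.60 ± 0.63 in mCAN10 over Allo (adjusted p = 0.630). In Nin libraries it had 4.96, 18.9, 5.73, 56.3 and 25.7 CPM, against 18.0, 48.7, 35.3 and 41.5 CPM in Allo_H libraries. The 2 Nin libraries with hair shaft transcripts lie below the whole Allo_H range and the other 3 lie within it or above. The log2 fold change was -0.69 ± 0.60 (adjusted p = 0.542), and -0.14 without those 2 libraries.

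Tpsab1, which RefSeq annotates as a transcribed pseudogene in the mouse reference genome, had 15.6, 11.4, 11.95 and 11.5 CPM in mCAN10, 19.4, 11.9, 11.3 and 1.25 CPM in Allo and 3.71, 13.3, 4.12 and 8.63 CPM in Syn libraries. In the second run it had 2.62, 5.51, 1.89, 21.2 and 10.5 CPM in Nin and 11.8, 22.5, 7.91 and 15.5 CPM in Allo_H libraries. No comparison of it passed, with log2 fold changes of 0.56 ± 0.68 in Allo over Syn, 0.20 ± 0.68 in mCAN10 over Allo and -0.79 ± 0.64 in Nin over Allo_H (edgeR adjusted p from 0.500 to 0.930). Reads of near-identical genes can be split in counting. The best aligned stretch between transcripts of Tpsb2 and Tpsab1 was 413 bases at 78.2% identity. Summed to 1 feature, these tryptases had a log2 fold change of 0.02 ± 0.63 in Allo over Syn, 0.50 ± 0.63 in mCAN10 over Allo and -0.72 ± 0.59 in Nin over Allo_H, none past the threshold (adjusted p from 0.509 to 1).

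Of the other members, Mcpt4 was closest to Cma2 (85.3% identity over 912 bases), which had 66 counts in all 21 libraries against 19922 for Mcpt4. Cma1 was closest to Gm48934 (96.9% over 295 bases), which had 3 counts against 14425 for Cma1. Mrgprb2 and Mrgprb1 aligned over 1916 bases at 69.9% identity. No exon of the 10 genes overlapped another gene in the GENCODE M21 annotation.

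KIT is the stem cell factor receptor, also made by melanocytes. Kit had 7.83, 9.05, 9.18 and 9.11 CPM in mCAN10, 6.93, 8.73, 4.26 and 2.69 CPM in Allo and 14.8, 8.32, 4.84 and 7.13 CPM in Syn libraries. Nin libraries had 16.0, 14.5, 16.7, 12.7 and 11.1 CPM and Allo_H libraries 7.14, 8.64, 15.7 and 9.81 CPM. All pairs of groups overlapped, although 3 of 4 mCAN10 libraries lay above every Allo library. The log2 fold change was -0.63 ± 0.34 in Allo over Syn, 0.63 ± 0.34 in mCAN10 over Allo and 0.46 ± 0.32 in Nin over Allo_H (edgeR adjusted p = 0.195, 0.263 and 0.406). Melanocyte markers summed to 133 and 127 CPM in Nin replicates 1 and 3 and to at most 85.6 CPM in every other library, and their part in the Kit level was not tested.

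FcεRI has a ligand-binding chain encoded by Fcer1a and a signal-amplifying chain encoded by Ms4a2. Fcer1a had 3.55, 5.88, 1.43 and 3.75 CPM in mCAN10, 6.10, 4.94, 2.13 and 0.125 CPM in Allo and 0.195, 0.901, 0.537 and 0.719 CPM in Syn libraries. Every mCAN10 library and 3 of 4 Allo libraries exceeded all Syn libraries, and Allo replicate 4, with 2 reads, lay below them. The log2 fold change was 2.49 ± 0.87 in Allo over Syn (edgeR adjusted p = 0.0447) and 2.63 ± 0.87 in mCAN10 over Syn (adjusted p = 0.178). The Allo call was kept in only 7 of 18 alternative analyses, with log2 fold changes from 1.91 to 2.89 and adjusted p from 0.0128 to 0.181. It was lost without Allo replicate 1 (2.02, adjusted p = 0.128), Allo replicate 2 (2.22, adjusted p = 0.104) or any of the 4 Syn libraries. Between mCAN10 and Allo the log2 fold change of Fcer1a was 0.14 ± 0.79 (adjusted p = 0.979).

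In the second run Fcer1a had 0.334, 1.96, 1.06, 7.14 and 3.00 CPM in Nin and 1.71, 6.26, 3.31 and 3.19 CPM in Allo_H libraries, which overlap (log2 fold change -0.42 ± 0.76, edgeR adjusted p = 0.847). Ms4a2 had 2.93, 3.80, 3.44 and 6.36 CPM in mCAN10, 3.58, 1.92, 0.532 and 0.0625 CPM in Allo and 1.09, 2.23, 1.52 and 1.21 CPM in Syn libraries. Every mCAN10 library exceeded every Syn library, and Allo libraries lay on both sides of the Syn range, the lowest with 1 read. The log2 fold change of Ms4a2 was 0.03 ± 0.64 in Allo over Syn (adjusted p = 1), 1.42 ± 0.64 in mCAN10 over Allo (adjusted p = 0.177) and 1.45 ± 0.64 in mCAN10 over Syn (adjusted p = 0.325). Without Allo replicate 1, its highest Allo library, Ms4a2 was called higher in mCAN10 over Allo (2.27, adjusted p = 0.0360). In Nin and Allo_H libraries it had 1.06 to 3.84 and 1.40 to 2.86 CPM, with a log2 fold change of -0.19 ± 0.60 (adjusted p = 0.983).

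FcεRI is shared with basophils. Mcpt8, a basophil protease, had 28, 16, 15 and 60 reads in mCAN10, 53, 63, 3 and 2 reads in Allo and 0, 0, 1 and 0 reads in Syn libraries. Mcpt8 was called higher in Allo than in Syn (edgeR adjusted p = 0.00455). Prss34, a further basophil protease, had 3, 4, 0 and 9 reads in mCAN10, 23, 6, 2 and 0 reads in Allo and none in Syn libraries. Of the 4 basophil markers, Cd200r3 was also called higher in Allo than in Syn (1.84 ± 0.58, adjusted p = 0.0276). The summed basophil markers were 18.0 to 32.6 CPM in mCAN10, 15.6 to 33.2 CPM in Allo and 11.4 to 17.4 CPM in Syn libraries. Most of this sum was Il3ra, a receptor chain also made by other cells, at 15.4 to 26.1 CPM in mCAN10, 15.0 to 26.2 CPM in Allo and 11.01 to 16.98 CPM in Syn libraries (0.50 ± 0.25 in Allo over Syn, adjusted p = 0.160). Mcpt8 was at 0.506 to 2.75 CPM in mCAN10, 0.125 to 3.28 CPM in Allo and at most 0.0448 CPM in Syn libraries. Allo replicate 4 was lowest of its group in both Fcer1a and this sum, and the part of basophils in the Fcer1a difference was not tested.

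Hdc, histidine decarboxylase, had 14.5, 7.15, 5.55 and 13.0 CPM in mCAN10, 23.3, 11.6, 8.66 and 5.00 CPM in Allo and 5.07, 4.07, 2.82 and 3.83 CPM in Syn libraries. All mCAN10 libraries and 3 of 4 Allo libraries exceeded every Syn library, and Allo replicate 4 fell just below the highest Syn library. Hdc was called 3.08-fold higher in Allo than in Syn (log2 1.62 ± 0.42, edgeR adjusted p = 0.00995). The call was kept in 16 of 18 alternatives. It was lost without Allo replicate 1 (1.10, adjusted p = 0.0554) and with skeletal muscle as a covariate (1.01, adjusted p = 0.102). In mCAN10 skin Hdc differed from Allo by -0.28 ± 0.41 (adjusted p = 0.757) and from Syn by 1.35 ± 0.42 (adjusted p = 0.157).

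In the second run Hdc had 3.90, 6.26, 6.14, 8.37 and 7.82 CPM in Nin libraries, against 15.4, 13.1, 15.0 and 32.5 CPM in Allo_H libraries. The groups did not overlap. Hdc fell by 1.55 on the log2 scale (SE 0.39, edgeR adjusted p = 0.0201), 2.92-fold. The call was kept in 16 of 22 alternatives and lost without Allo_H replicate 4 (-1.16, adjusted p = 0.0986), without the 2 Nin libraries high in hair shaft genes (-1.39, adjusted p = 0.0898), on only the libraries labelled as run on 2 lanes or only the rest, and when the second run was fitted alone (-1.54, adjusted p = 0.0631), where 94 of 16230 genes were called.

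Neutrophils and basophils also make histamine. The 7 neutrophil markers summed to 15.8 to 28.3 CPM in mCAN10, 60.4 to 128 CPM in Allo and 9.16 to 23.3 CPM in Syn libraries, and to 13.5 to 37.3 CPM in Nin and 49.4 to 170 CPM in Allo_H libraries. Allo replicate 1 was highest of the first run in both Hdc and this sum, and Allo_H replicate 4 was highest of the second run in both. In mCAN10 skin the neutrophil sum lay below the whole Allo range, and Hdc was 5.55 to 14.5 CPM, against 5.00 to 23.3 CPM in Allo. The part of neutrophils in the Hdc differences was not tested.

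Mrgprb2 did not overlap between mCAN10 and Allo libraries, nor between Allo and Syn libraries. It had 8.76, 9.21, 13.7 and 9.39 CPM in mCAN10, 2.29, 2.24, 1.06 and 2.25 CPM in Allo and 12.7, 13.6, 15.5 and 18.2 CPM in Syn libraries. All Allo libraries lay below all others of the run, and 1 mCAN10 library lay inside the Syn range. Mrgprb2 was called 7.65-fold lower in Allo than in Syn (log2 -2.94 ± 0.36, edgeR adjusted p = 4.40e-05) and 5.22-fold higher in mCAN10 than in Allo (2.38 ± 0.35, adjusted p = 0.000527). Both calls were kept in 18 of 18 alternatives, with log2 fold changes from -3.03 to -2.73 and from 2.18 to 2.57. Between mCAN10 and Syn it differed by -0.55 ± 0.32 (adjusted p = 0.489).

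In the second run Mrgprb2 had 6.18, 11.5, 8.91, 13.3 and 5.67 CPM in Nin libraries, against 1.71, 4.46, 2.97 and 1.54 CPM in Allo_H libraries. No library of either group overlapped the other. Mrgprb2 was called 3.40-fold higher in Nin (log2 1.77 ± 0.33, edgeR adjusted p = 0.00421). The value without the 2 Nin libraries high in hair shaft genes was 1.88 (adjusted p = 0.00736). The call was kept in 18 of 22 alternatives, with log2 fold changes from 1.50 to 2.13. It was lost when the second run was fitted alone (1.77, adjusted p = 0.0802) and when only the libraries labelled as run on 2 lanes, or only the rest, were used, where no gene of the table was called.

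**Figure D2:**
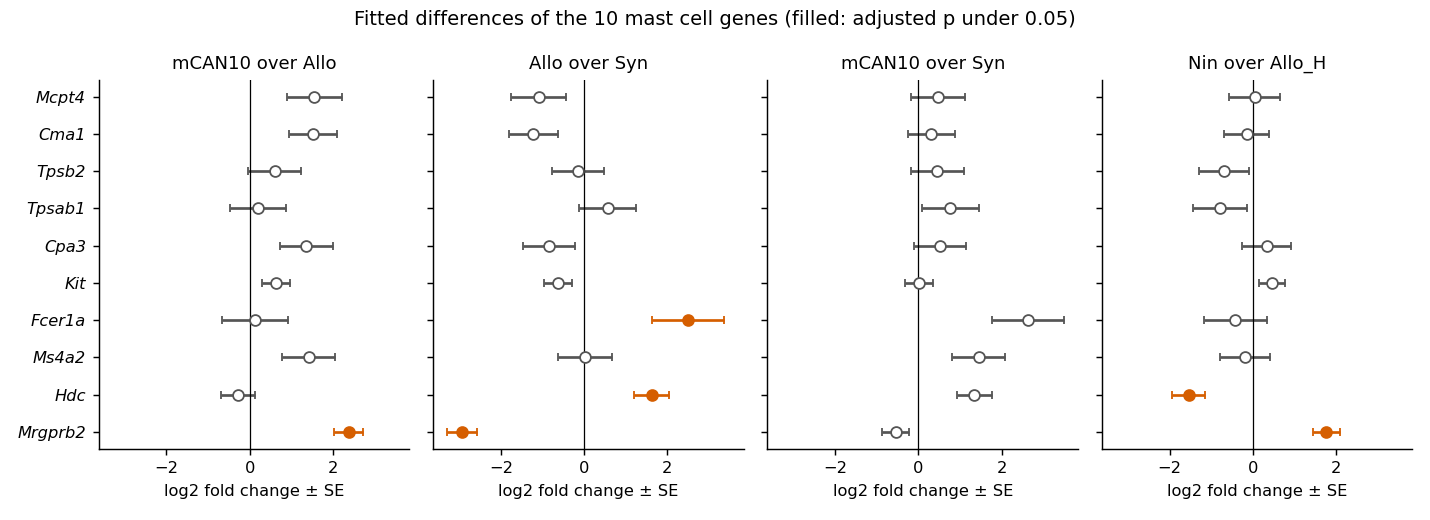
Log2 fold change (horizontal axis) with its SE for each of the 10 genes in 4 comparisons, with filled points where the adjusted p was under 0.05. Mrgprb2 is the gene that was called in 3 of the 4 comparisons, at -2.94 in Allo over Syn, 2.38 in mCAN10 over Allo and 1.77 in Nin over Allo_H.

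The difference between the effect of the antibody and that of nintedanib (mCAN10 over Allo minus Nin over Allo_H) was tested directly. None of the 10 genes and 0% of all genes were called by edgeR, while DESeq2 called 424 genes and none of the 10. By edgeR 2 of the 10 had an unadjusted p under 0.05, a threshold at which the share of all genes is not given here. The difference in log2 fold change was 1.67 ± 0.79 for Cma1 (edgeR adjusted p = 0.404), 1.27 ± 0.57 for Hdc (adjusted p = 0.369) and 0.62 ± 0.46 for Mrgprb2 (adjusted p = 0.666). Treatment, counting run and control group (antibody or water) differ together in this contrast.

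Across libraries the members fell into blocks, given here as a description without a test, since all values of a library share its tissue piece and depth. On log2 CPM, Mcpt4 correlated with Cpa3 at r = 0.995 over the 12 libraries of the first run and 0.924 over the 9 of the second, and with Cma1 at 0.974 and 0.920. Tpsab1 followed Mcpt4 less closely (0.605 and 0.463), and followed Fcer1a at 0.849 and 0.867. Hdc and Cpa3 were nearly unrelated (0.150 and 0.106). Mrgprb2 and Hdc ran in opposite directions, at -0.533 and -0.796.

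**Figure D3:**
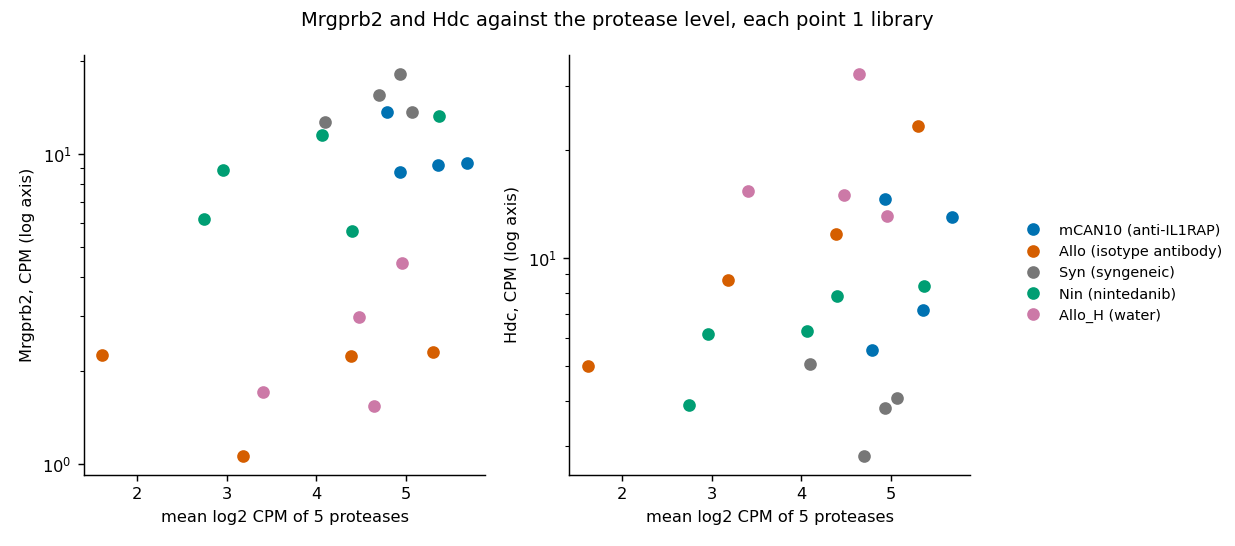
CPM of Mrgprb2 (left) and Hdc (right), on log axes, against the mean log2 CPM of Mcpt4, Cma1, Tpsb2, Tpsab1 and Cpa3, with 1 point per library. Allo libraries spread from 1.61 to 5.30 in protease level but stay at 1.06 to 2.29 CPM in Mrgprb2.

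Counts were also set against Cpa3 of the same library, a scale chosen after the values were seen, which compares mast cell genes with each other. The ratio of Mcpt4 to Cpa3 was 1.71 to 2.01 in mCAN10, 1.39 to 1.75 in Allo and 1.72 to 2.00 in Syn libraries, and 3 of 4 Allo libraries (1.39 to 1.42) lay below every mCAN10 and Syn library. It was 1.03 to 1.66 in Nin libraries, against 1.19 to 2.27 in Allo_H libraries. For Tpsb2 the ratio averaged 1.06 ± 0.331 in mCAN10, 2.27 ± 0.926 in Allo and 1.06 ± 0.0787 in Syn libraries. In the second run it averaged 0.839 ± 0.348 in Nin libraries, against 2.12 ± 0.308 in Allo_H libraries. The ranges of Tpsb2 to Cpa3 did not overlap between Allo (1.40 to 3.32) and Syn (0.943 to 1.12), nor between Nin (0.490 to 1.32) and Allo_H (1.87 to 2.57). Cpa3 had 111 and 33 reads in Allo replicates 3 and 4, against 488 to 953 in Syn libraries. Any gene that did not fall with Cpa3 has a higher ratio there, whether or not mast cells make it. The share of all genes with ratios that do not overlap is not given here.

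The ratio of Tpsab1 to Cpa3 was 0.539 to 2.11 in Allo and 0.127 to 0.417 in Syn libraries, without overlap. That of Fcer1a was 0.0606 to 0.396 in Allo and 0.0102 to 0.0282 in Syn libraries, and that of Hdc 0.527 to 2.42 in Allo and 0.0871 to 0.266 in Syn libraries, again without overlap. In Nin libraries the ratio of Cma1 to Cpa3 was 0.705 to 1.02, against 1.08 to 1.50 in Allo_H libraries. Of 36 such comparisons by exact 2-sided permutation tests, the lowest Benjamini-Hochberg p was 0.0935. The 5 against 4 libraries of the second run allow a smaller raw p than 4 against 4. The smallest raw p that 4 against 4 libraries allow is 0.0286, which was reached by Tpsb2, Tpsab1, Fcer1a and Hdc in Allo against Syn. It was also reached by Fcer1a and Ms4a2 in mCAN10 against Syn. There Fcer1a to Cpa3 was 0.0476 to 0.143 against 0.0102 to 0.0282, and Ms4a2 to Cpa3 was 0.0820 to 0.118 against 0.0388 to 0.0699. Over 36 comparisons a p of this size passes adjustment only if most comparisons reach it, so the adjusted values do not show that the ratios were alike. Mrgprb2 to Cpa3 overlapped in Allo (0.0674 to 1.09) and Syn (0.427 to 0.666), and Allo replicate 4, with 33 Cpa3 reads, had the highest ratio.

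**Figure D4:**
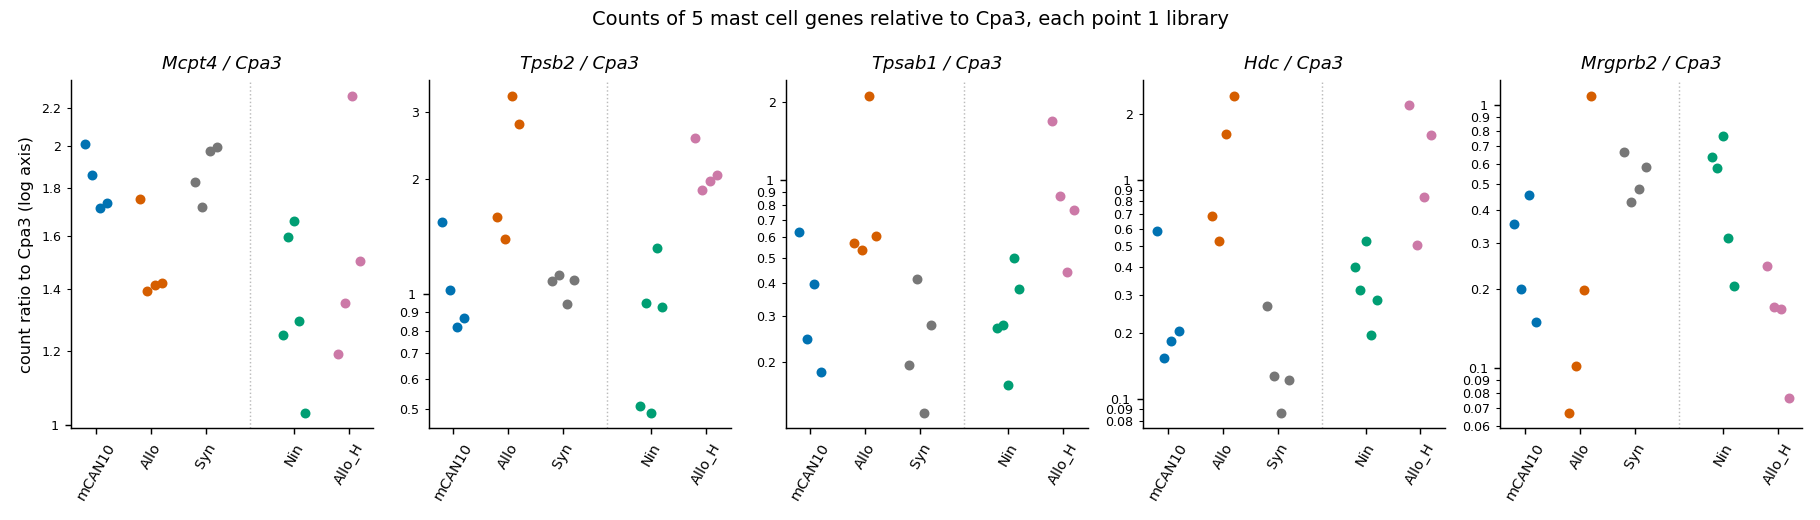
Count ratio of Mcpt4, Tpsb2, Tpsab1, Hdc and Mrgprb2 to Cpa3 (log axes), with 1 point per library in the 5 groups and a dotted line between the counting runs. Tpsb2 to Cpa3 lies at 1.40 to 3.32 in Allo and 0.943 to 1.12 in Syn libraries, while Mcpt4 to Cpa3 lies within 1.03 to 2.27 in all libraries.

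Genes that resembled the proteases most were ranked by the lower of the within-run correlations with the mean log2 CPM of the 5 proteases. Ranked were 13775 genes with a mean of 1 CPM or more in each run. Symbols made of Gm and a number, or ending in Rik, were left out. The 10 highest outside the members were Traf5, Rgs18, Glb1, Prkcb, Pkhd1l1, Akr1c13, Plxnd1, Lrrc17, Tnfsf12 and Mrgprb1. Traf5, a TNF receptor adaptor, had r = 0.900 over the 12 libraries of the first run and 0.908 over the 9 of the second. Mrgprb1, a relative of Mrgprb2 made by mast cells, had 0.960 and 0.801. Mrgprb1 was not called in any comparison, at -1.24 ± 0.56 in Allo over Syn (edgeR adjusted p = 0.122), 1.52 ± 0.56 in mCAN10 over Allo (adjusted p = 0.0932) and -0.04 ± 0.52 in Nin over Allo_H (adjusted p = 1).

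Of 5 other mast cell proteases only Tpsg1, a membrane-anchored tryptase, and Ctsg passed the filter on low counts. Tpsg1 had 1.47, 2.18, 1.53 and 3.75 CPM in mCAN10, 0.872, 0.520, 0.0967 and 0 CPM in Allo and 1.37, 1.33, 2.64 and 1.57 CPM in Syn libraries. All Allo libraries lay below all others of the run. Tpsg1 was called lower in Allo than in Syn (-2.16 ± 0.74, edgeR adjusted p = 0.0410) and higher in mCAN10 than in Allo (2.53 ± 0.74, adjusted p = 0.0336). In Nin over Allo_H Tpsg1 was at -1.50 ± 0.74 (adjusted p = 0.210). Ctsg was not called in any comparison and lay in the other direction to Tpsg1 in Allo over Syn (1.89 ± 1.00, adjusted p = 0.191). Its log2 fold change was 0.87 ± 0.90 in mCAN10 over Allo (adjusted p = 0.623) and 2.75 ± 0.99 in mCAN10 over Syn (adjusted p = 0.227).

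Of 9 other receptors and surface proteins of mast cells, 4 were called higher and 1 lower in Allo than in Syn, against 13.8% and 8.8% of all genes. Enpp3, the ectoenzyme known as CD203c, had 3.86 to 9.25 CPM in mCAN10, 1.31 to 1.87 CPM in Allo and 7.48 to 9.61 CPM in Syn libraries. As with Mrgprb2, all Allo libraries lay below the others. Enpp3 was called lower in Allo than in Syn (-2.29 ± 0.42, edgeR adjusted p = 0.000933) and higher in mCAN10 than in Allo (1.81 ± 0.41, adjusted p = 0.00886), and was at 0.75 ± 0.39 in Nin over Allo_H (adjusted p = 0.249). Fcer1g, the signalling chain that FcεRI shares with macrophage Fc receptors, rose by 1.62 ± 0.42 in Allo over Syn (adjusted p = 0.00922). Macrophage markers summed to 619 to 1330 CPM in mCAN10, 722 to 1707 CPM in Allo and 281 to 549 CPM in Syn libraries, and their part in the Fcer1g level was not tested.

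The cytokine receptor chain genes Csf2rb (1.71 ± 0.44, adjusted p = 0.00965) and Csf2rb2 (1.28 ± 0.38, adjusted p = 0.0196) also rose in Allo over Syn by edgeR, and both fell in Nin over Allo_H (-1.43 ± 0.41, adjusted p = 0.0350, and -1.37 ± 0.35, adjusted p = 0.0209). These genes are close copies of each other, so the split of reads between them is uncertain. Hrh4, a histamine receptor, was called higher in Allo than in Syn on few reads, with 5, 2, 4 and 3 reads in Allo and 0, 0, 1 and 0 reads in Syn libraries. Hrh4 was also called higher in mCAN10 than in Syn (adjusted p = 0.0296), with 26, 19, 5 and 4 reads in mCAN10 libraries. The adenosine receptor gene Adora3 rose in mCAN10 over Allo (1.33 ± 0.41, adjusted p = 0.0433). Il1rl1, the IL-33 receptor, was at 0.89 ± 0.59 in Allo over Syn (adjusted p = 0.302), -0.18 ± 0.58 in mCAN10 over Allo (adjusted p = 0.919) and -0.13 ± 0.55 in Nin over Allo_H (adjusted p = 1). Il1rap itself was called higher in Allo than in Syn (0.49 ± 0.17, adjusted p = 0.0430) and was at -0.41 ± 0.17 in mCAN10 over Allo (adjusted p = 0.140).

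Of 10 tested genes for mediator synthesis and storage, 2 rose in Allo over Syn and none fell, against 13.8% of all genes called higher and 8.8% lower, a share near that of all genes. They were Srgn, the proteoglycan core of granules (1.50 ± 0.33, edgeR adjusted p = 0.00309), and Alox5ap, of leukotriene synthesis (1.19 ± 0.41, adjusted p = 0.0450), both also made by other leukocytes. None of the 10 was called in the treatment comparisons, against 10.8% of all genes in mCAN10 over Allo and 9.31% in Nin over Allo_H. Of 12 genes for signalling below FcεRI and KIT, 6 rose in Allo over Syn and none fell, against the same 13.8% and 8.8% of all genes. The adaptors Lat (2.28 ± 0.55) and Lcp2 (2.15 ± 0.54), the exchange factor Vav1 (1.61 ± 0.46) and the kinase Syk (1.03 ± 0.28) were among them (adjusted p from 0.00585 to 0.0157), and all 4 act in several leukocyte types. In mCAN10 over Allo, Fyn was called (0.59 ± 0.19, adjusted p = 0.0490), and in Nin over Allo_H, Syk fell (-0.89 ± 0.26, adjusted p = 0.0378).

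None of 7 tested ligands of mast cells was called in any comparison. Of all genes, 22.6% were called in Allo over Syn, 10.8% in mCAN10 over Allo, 0.811% in mCAN10 over Syn and 9.31% in Nin over Allo_H. In a list this short, none called is near those shares and does not show that the ligands were unchanged. Kitl, which encodes stem cell factor, was at -0.41 ± 0.27 in Allo over Syn (edgeR adjusted p = 0.309), 0.68 ± 0.27 in mCAN10 over Allo (adjusted p = 0.122) and 0.48 ± 0.26 in Nin over Allo_H (adjusted p = 0.256). Il33 was at -0.77 ± 0.47, 0.36 ± 0.46 and -0.40 ± 0.44 in the same comparisons (adjusted p from 0.257 to 0.704). Of the 4 transcription factors of mast cells, none was called in the first run, which is again near the shares of all genes. In Nin over Allo_H Gata1 fell (-2.53 ± 0.75, adjusted p = 0.0402), on at most 0.185 CPM in Nin libraries. Mitf, also a melanocyte factor, rose (1.18 ± 0.29, adjusted p = 0.0179), with 70.3 CPM in Nin replicate 1, one of the 2 libraries with hair shaft genes, and 20.8 to 27.3 CPM in the other Nin libraries, against 8.61 to 17.7 CPM in Allo_H libraries. Gata2 was at -0.11 ± 0.33 in Allo over Syn, 0.57 ± 0.33 in mCAN10 over Allo and -0.63 ± 0.32 in Nin over Allo_H (adjusted p from 0.222 to 0.884).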

How the data were processed

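Per the submitters' processing notes, the authors made the deposited values, whole-number read counts per gene symbol, with FastQC, Trimmomatic, STAR and featureCounts on GRCm39. For these, the version and annotation are not stated in the sources at hand. Libraries came from poly-A RNA, per the labels' protocols.

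The counts were fitted in R 4.3.3 with edgeR 4.0.16. Genes passing filterByExpr at a minimum count of 10 were kept, libraries were scaled with TMM, and all 21 libraries entered 1 quasi-likelihood fit with a mean per group. Benjamini-Hochberg adjusted p under 0.05 was called. CPM are counts per 1000000 of the TMM-scaled library total. The pooled spread can understate the error of a group that varies more than the others, such as Allo. The labels do not say that each sample is a separate mouse, so p-values measure the spread between samples. Correlations used log2 CPM with a prior count of 2. Calculations were tested on simulated data.

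The members and gene lists were chosen with earlier results of these data known. Named genes were the 10 members, up to 4 called genes per list by lowest p, a few fixed receptors, ligands and factors, and the 10 genes most like the proteases. Csf2rb, Adora3, Fyn and Ctsg fall outside this rule and were named after their values were seen, and lists of other cell types are given as sums. The hair shaft and Y-linked lists were added after seeing the data. Alternatives were RLE factors, no filter, fewer libraries, a replicate block, a muscle covariate, summed near copies and DESeq2 1.42.0. Transcripts were aligned with BLAST+ 2.17.0, and figures drawn with matplotlib 3.10.9.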

Additional observations from a re-analysis of the deposited data

Results flagged for a closer look

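The values of each gene in each group of 4 or 5 libraries, 50 groups in all, were checked for a library that stands apart from the rest by Dixon's criterion, which chance alone meets in about 1 of 20 groups. It was met by 6 libraries. Mrgprb2 stood apart low in Allo replicate 3 (1.06 CPM, against 2.24 to 2.29 CPM in the other 3) and high in mCAN10 replicate 3 (13.7 CPM, against 8.76 to 9.39 CPM). Hdc stood apart high in Allo_H replicate 4 (32.5 CPM, against 13.1 to 15.4 CPM), the library without which the lower Hdc of Nin skin did not pass the threshold. In mCAN10 replicate 1, Tpsab1 was high (15.6 CPM) and Kit was low (7.83 CPM) for the group. Cpa3 was low in Syn replicate 1 (19.0 CPM, against 31.2 to 32.4 CPM). No member passed the test of the difference between the antibody and nintedanib effects.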

How the results depend on the processing

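The higher Mrgprb2 of mCAN10 over Allo and its lower level in Allo over Syn passed in all alternatives run. Counts of called members that changed, against 3 in Allo over Syn, 1 in mCAN10 over Allo, 0 in mCAN10 over Syn and 2 in Nin over Allo_H, were these. Allo over Syn had 2 with no filter and on only the groups compared, both without Fcer1a (adjusted p = 0.0680 and 0.0706). These fits called 3636 of 40109 and 4752 of 18711 genes. With skeletal muscle as a covariate Allo over Syn had 2, Mrgprb2 and Cma1, with Fcer1a and Hdc lost, and mCAN10 over Allo had 4. Of 20462 genes, 3626 and 2595 were called in these comparisons with that covariate. DESeq2 gave 1 in mCAN10 over Syn (Fcer1a), where 678 genes of the table were called. Fitting only the groups compared gave 3 (Fcer1a, Hdc and Ms4a2), where 2131 genes of the table were called against 166. Nin over Allo_H had 0 when only its run or only its groups were fitted (94 genes called). It had 0 with only the libraries on 2 lanes and 0 with only the rest, where no gene was called. Without the Nin libraries high in hair shaft keratins it had 1 (Mrgprb2), where 1225 of 20837 genes were called. Over single libraries left out, the count was 2 to 3 in Allo over Syn, where 3580 to 4953 of all genes were called. In mCAN10 over Allo it was 1 to 4 (1284 to 2168 of all genes), with 4 without Allo replicate 1 (2168 of 20813). In mCAN10 over Syn it was 0 (31 to 152 of all genes) and in Nin over Allo_H 1 to 2 (782 to 2794). For the difference between treatments it was 0 (0 to 7 of all genes). Without Allo replicate 1 the 3 in Allo over Syn were Mrgprb2, Cma1 and Mcpt4 in place of Fcer1a and Hdc. The causes were not tested.

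The numbers of the titles and descriptions do not pair the samples: same-numbered libraries correlated at -0.35 to 0.35 in their deviations. With the replicate block by title number, 2, 1, 0 and 2 members were called in Allo over Syn, mCAN10 over Allo, mCAN10 over Syn and Nin over Allo_H. Of 20462 genes, 4498, 2012, 98 and 2130 were called in the same comparisons. Under the block Fcer1a was not called in Allo over Syn (2.70, adjusted p = 0.0513). The block by title number gave log2 fold changes of -0.081 for Fcer1a in mCAN10 over Allo and -0.022 for Mcpt4 in Nin over Allo_H. The block by description number gave -0.021 for Mcpt4 and -0.011 for Ms4a2 in Allo over Syn.

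Uncalled members near 0 also turned direction. In mCAN10 over Syn, Kit was -0.044 with DESeq2, -0.043 with RLE factors, -0.040 without the filter, -0.043 on its run, -0.044 on symbols of both runs (chosen after seeing the data), -0.041 on the groups compared and -0.090 with the muscle covariate. That covariate gave -0.0046 for Cma1 in mCAN10 over Syn, 0.11 for Hdc in mCAN10 over Allo and -0.95 for Ms4a2 in Allo over Syn. Ms4a2 was -0.018 without the filter and -0.0020 on the groups compared. In Nin over Allo_H, libraries not on 2 lanes gave 0.025 for Cma1, 0.20 for Fcer1a, -0.071 for Mcpt4 and 0.032 for Tpsab1, and summed chymases gave -0.04. Without the Nin libraries high in hair shaft keratins (chosen after seeing the data), Cma1 was 0.25, Fcer1a 0.12 and Ms4a2 0.088, and the difference between treatments was -0.0066 for Fcer1a.

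With single libraries left out, log2 fold changes spanned 0 for some. In Nin over Allo_H these were Cma1 (-0.67 to 0.011), Cpa3 (-0.073 to 0.57) and Mcpt4 (-0.35 to 0.22), each lowest without Nin replicate 4. In mCAN10 over Allo these were Fcer1a (-0.26 to 0.60), Hdc (-0.53 to 0.25) and Tpsab1 (-0.17 to 0.62). In mCAN10 over Syn these were Cma1 (-0.058 to 0.41) and Kit (-0.19 to 0.38). In Allo over Syn these were Ms4a2 (-0.83 to 0.41) and Tpsb2 (-0.73 to 0.19). Kit in the difference between treatments spanned -0.11 to 0.47. Fcer1a and Ms4a2 had 2 and 1 reads in Allo replicate 4, whose total count of 18556762 lay within the range of the other libraries.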
